A study of Mus musculus with 28 samples.

Results

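The comparison set EO771 mouse breast cancer cells against MLg mouse lung fibroblasts, each grown by itself. Members were chosen by their labels alone: all 4 libraries labelled EO771 and not co-cultured, and all 4 labelled MLg and not co-cultured, which made 8 of the 28 libraries of the series. Both lines carried the genotype label WT and no treatment or time label beyond the absence of a partner, and both were kept in DMEM with serum and antibiotics. The other 20 libraries, of C2C12 myotubes alone and of co-cultures of EO771 with MLg or C2C12, give levels in another line and enter 2 alternative fits. RNA was read by stranded mRNA sequencing. Each side was a single cell line, so the tissue of origin, the cell lineage, transformation and anything peculiar to the line cannot be told apart here. The labels number the libraries but do not say whether they came from separate cultures, so the p-values rest on the spread among libraries, and that spread could be technical only.

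EO771 is a transplantable mammary cancer line that can be grown in immunocompetent mice of its own strain, and MLg is a fibroblast line from mouse lung. Epithelial cells hold to each other through E-cadherin junctions and keratin filaments and stand on a laminin-rich basement membrane. Fibroblasts instead build the interstitial matrix of fibrillar collagen and fibronectin, answer platelet-derived and transforming growth factors, and secrete many of the ligands to which neighbouring epithelium responds. Carcinoma cells in culture can keep, mix or lose epithelial traits, and typically run a metabolism turned to growth.

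The 4 EO771 libraries held 34088050 to 38984827 counts and the 4 MLg libraries 61734484 to 69688319 counts. Levels are given in CPM, a gene's counts scaled to the total of its library, with libraries always in the order R3-1, R3-2, R5-1 and R6-2 for EO771 and R3-2, R5-2, R6-1 and R6-2 for MLg. MLg R3-2 stood apart from the other MLg libraries: its chi-square per degree of freedom against each of them was 91.4 to 121, against 14.9 to 26.9 among the other 3, and mitochondrial genes took 9.14% of its counts, against 5.14% to 6.06%. Several results that turn on it are given with and without it.

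Most genes differed between the lines. Of 16970 genes tested, edgeR's quasi-likelihood test called 14045 (82.8%) at an adjusted p under 0.05, with 6507 higher in EO771 (38.3%) and 7538 lower (44.4%). A stricter call asked whether the difference exceeded 2-fold (edgeR glmTreat, adjusted p under 0.05), called the 2-fold test below. It was passed by 8280 genes (48.8%), of which 3508 were higher in EO771 (20.7%) and 4772 lower (28.1%). Without MLg R3-2 the 2-fold test called 3644 genes higher and 4767 lower. The median log2 fold change over all genes tested was -0.12, and the counts and medians of the gene lists below are to be read beside these values. "Rose" and "fell" stand for EO771 relative to MLg, and are used only of genes that passed a test. All 4 EO771 libraries lay above all 4 MLg libraries for 37.5% of tested genes, and below them for 40.9%. A gene near 0 in one line entered the test only where the other line expressed it, so list counts cover the members that reached the filter and are descriptions.

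**Figure D1:**
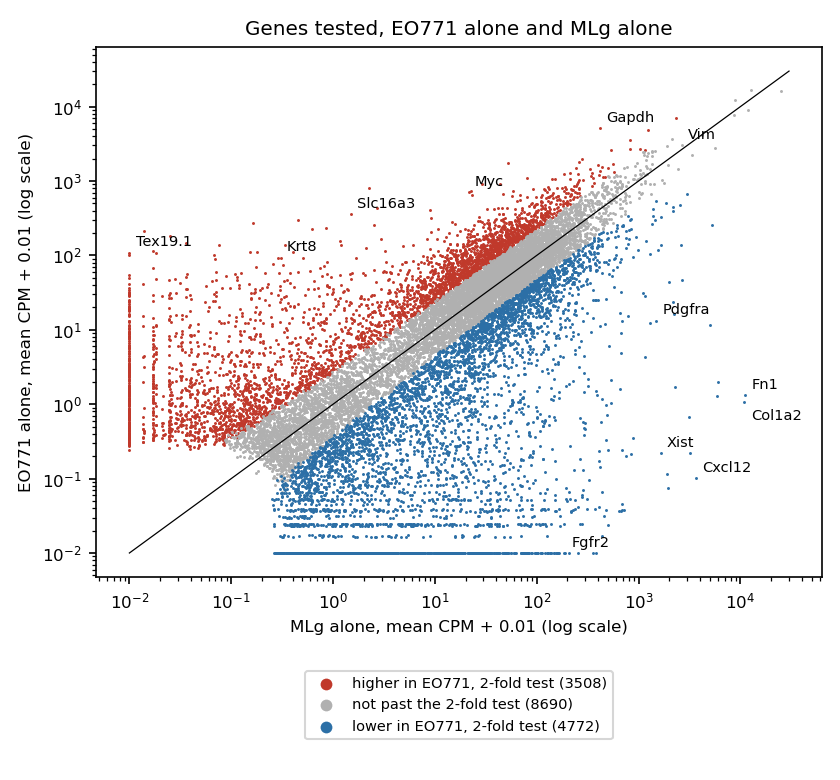
Mean level of each tested gene in MLg (x axis) and EO771 (y axis), in CPM plus 0.01 on log scales, with the diagonal of equal levels. The 3508 genes higher in EO771 and the 4772 lower under the 2-fold test spread over several orders of magnitude, and the lines of points at 0.01 are genes with no count in one line.

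**Figure D2:**
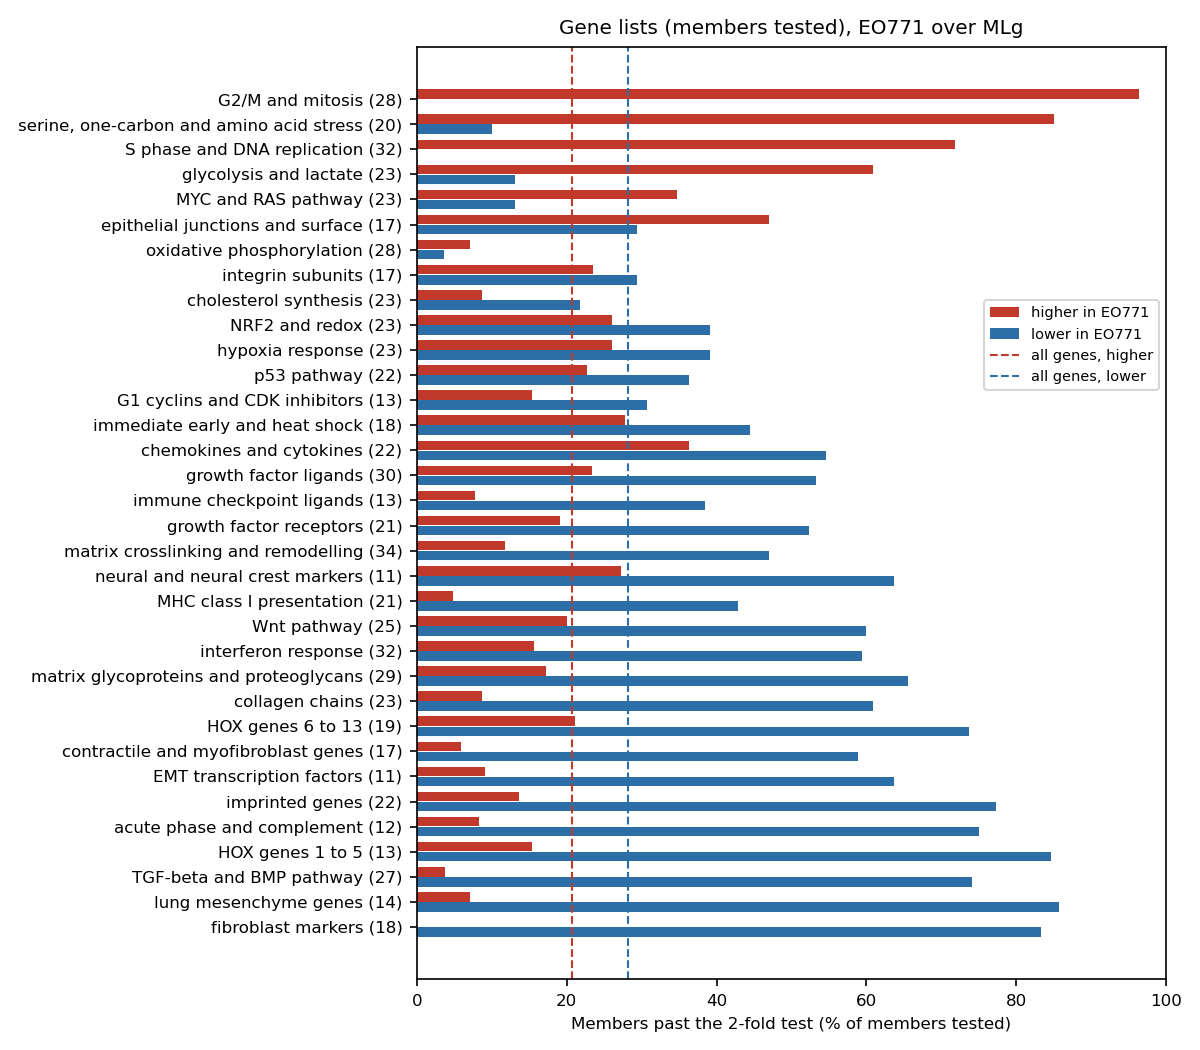
Share of the tested members of each gene list that passed the 2-fold test, higher (upper bar) or lower (lower bar) in EO771, for lists with at least 10 tested members. Dashed lines mark all tested genes, 20.7% higher and 28.1% lower; cell-cycle, serine and glycolysis genes stand at the top, and fibroblast, lung mesenchyme and TGF-beta genes at the bottom.

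Epithelial traits, which a breast cancer line may keep or lose, were only partly found in EO771. Cdh1, which encodes E-cadherin, was nearly silent in both lines, with 0.117, 0.0513, 0 and 0.0561 CPM in EO771 and 0, 0.0302, 0.0432 and 0.0324 CPM in MLg, and it was too low to test. Of 30 epithelial junction and surface genes, 23 averaged under 1 CPM in EO771 and 23 did so in MLg. Among the 17 that could be tested, 8 rose and 5 fell under the 2-fold test, with a median log2 fold change of 1.45. Most of these genes were thus under 1 CPM in EO771 as well as in MLg.

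A few epithelial genes were clearly expressed in EO771. Krt8, a keratin of simple epithelia, had 94.6, 91.0, 96.0 and 91.7 CPM in EO771, against 0.474, 0.227, 0.245 and 0.243 CPM in MLg. Every EO771 library lay far above every MLg library, a 297-fold difference (log2 8.21 ± 0.16 SE, edgeR adjusted p = 7.43e-14). In such bulk libraries, fewer cells with a transcript and less of it per cell cannot be told apart. Its usual filament partner Krt18 had only 0.469, 0.257, 0.342 and 0.365 CPM in EO771 and 0, 0.0907, 0.130 and 0.0648 CPM in MLg. Epcam, an epithelial adhesion protein, stood at 0.645, 0.564, 0.342 and 0.505 CPM in EO771 and 0.0287, 0, 0.0288 and 0 CPM in MLg, a rise but to under 1 CPM. St14, the membrane protease matriptase, averaged 24.6 ± 3.82 CPM in EO771 and 0.0562 ± 0.103 CPM in MLg (SD, n = 4 each), and the laminin receptor subunit Itga6 averaged 146 ± 17.1 CPM in EO771 and 25.5 ± 5.498 CPM in MLg. Both rose under the 2-fold test. The desmosomal plaque gene Jup went the other way, with 6.37 ± 0.792 CPM in EO771 and 44.5 ± 5.75 CPM in MLg. Krt7, another simple keratin, was likewise the fibroblasts' gene here, at 0.0953 CPM in EO771 and 19.5 CPM in MLg.

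Regulators and products of mammary and other glandular epithelium were also mixed. Of 14 epithelial regulators 8 were tested, of which 4 rose and 2 fell under the 2-fold test, and of 21 mammary lineage genes 7 were tested, of which 2 rose and 3 fell. The count of 2 regulators that fell became 1 in 4 alternatives, among them the fit without MLg R3-2. Ovol1, a repressor that helps hold the epithelial state, averaged 7.16 ± 0.321 CPM in EO771 and 0.0826 ± 0.0386 CPM in MLg (edgeR adjusted p = 1.68e-10). Foxa1, a pioneer factor of luminal cells, was low but higher in EO771, at 3.34 CPM against 0.530 CPM in MLg. Gata3, the other luminal factor, was almost absent from EO771, with 0.704, 0.410, 0.485 and 0.505 CPM, and present in MLg at 19.5, 18.5, 18.5 and 15.8 CPM. Areg, a ligand of the EGF receptor that drives mammary duct growth, was high in EO771, at 65.1, 53.5, 53.8 and 62.8 CPM, against 0.531, 0.121, 0.288 and 0.194 CPM in MLg. Lcn2, a secreted siderophore-binding protein, averaged 28.1 ± 6.77 CPM in EO771 and 0.723 ± 0.220 CPM in MLg.

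Of the receptors by which breast cancers are classed, Pgr had no count in any of the 8 libraries. The 4 libraries summed allow at most 0.0209 CPM in EO771 and 0.0112 CPM in MLg, counting error only. Esr1, the estrogen receptor, had 9.42, 8.39, 8.13 and 8.42 CPM in EO771 and 2.53, 2.66, 3.08 and 2.27 CPM in MLg, and passed the 2-fold test (edgeR adjusted p = 2.17e-04). Erbb2 was expressed in both lines and was lower in EO771, at 36.7, 42.0, 38.6 and 32.6 CPM against 111, 103, 91.0 and 97.5 CPM in MLg. Egfr fell as well, to 56.5 CPM in EO771 against 221 CPM in MLg. Erbb3, the kinase-poor partner of Erbb2, ran opposite to both, at 17.6, 20.5, 13.8 and 16.4 CPM in EO771 and 0.143, 0.302, 0.144 and 0.130 CPM in MLg.

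**Figure D3:**
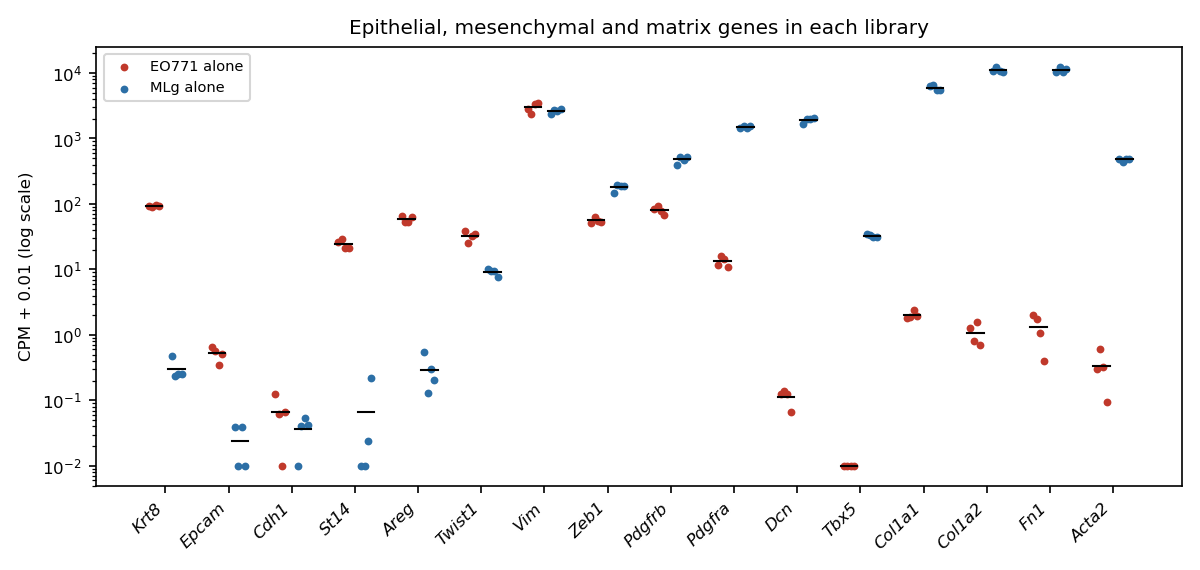
Level of 16 identity and matrix genes in each library, in CPM plus 0.01 on a log scale; points are libraries (EO771 left, MLg right) and black bars are means. Cdh1 lies near the floor in both lines and Vim overlaps between the lines, while Krt8 separates EO771 upward and Dcn, Tbx5, Col1a1, Col1a2, Fn1 and Acta2 separate MLg upward.

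Mesenchymal transcripts were found in both lines. Vim, the intermediate filament protein of mesenchymal cells, had 2858, 2383, 3417 and 3497 CPM in EO771 and 2364, 2701, 2673 and 2819 CPM in MLg. The groups overlapped and edgeR did not call it (adjusted p = 0.284), though without EO771 R3-2 it was called higher in EO771 (log2 0.25, adjusted p = 0.0322). Of 11 tested transcription factors of the epithelial-mesenchymal transition, 7 fell and 1 rose under the 2-fold test, with a median log2 fold change of -1.74. The riser was Twist1, with 38.8, 25.1, 32.9 and 34.5 CPM in EO771 and 10.0, 9.49, 9.40 and 7.73 CPM in MLg (log2 1.78 ± 0.14 SE, edgeR adjusted p = 3.97e-08). Zeb1, which represses Cdh1, fell to 56.1 CPM in EO771, against 180.5 CPM in MLg, and was present in every EO771 library. Its relative Zeb2 averaged 81.9 ± 12.7 CPM in EO771 and 86.5 ± 7.73 CPM in MLg and was not called. Prrx1, a homeobox factor of limb and connective-tissue mesenchyme, stood at 70.9 CPM in EO771 and 405 CPM in MLg. Ddr2, a fibrillar collagen receptor kinase, averaged 491 ± 36.7 CPM in EO771 and 394 ± 4.76 CPM in MLg (edgeR adjusted p = 0.00767). The plain test called Ddr2 higher, but 2 of the alternative fits did not. EO771 thus had transcripts of Vim, Zeb1, Zeb2, Twist1 and Ddr2 beside Krt8.

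The fibroblast label of MLg was met by most markers and missed by a few. Of 20 fibroblast markers 18 were tested, and of these 15 fell in EO771 and 0 rose under the 2-fold test (16 fell and 1 rose under the plain test), with a median log2 fold change of -6.19 over these 18. Pdgfra, the platelet-derived growth factor receptor of tissue fibroblasts, had 11.6, 16.1, 14.5 and 10.8 CPM in EO771 and 1448, 1548, 1445 and 1524 CPM in MLg. Pdgfrb differed less, with 83.5, 93.5, 77.8 and 68.2 CPM in EO771 and 393, 528, 472 and 526 CPM in MLg. The small proteoglycan Dcn, decorin, was at 0.117, 0.128, 0.114 and 0.0561 CPM in EO771 and 1640.0, 1990.4, 1985 and 2028 CPM in MLg. In both receptor genes and in Dcn every EO771 library lay below every MLg library. Thy1, a fibroblast surface marker, failed, with no count in EO771 and 0.1004, 0, 0.0864 and 0 CPM in MLg, and Fap, a fibroblast activation protease, had no count in EO771 and averaged 0.225 CPM in MLg.

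Lung mesenchyme factors were found in MLg in a partial set. Tcf21, a factor of lung fibroblasts, had no count in any of the 8 libraries. Tbx5, a T-box factor of heart, forelimb and lung mesenchyme, had no count in EO771 and 34.5, 33.5, 31.6 and 31.4 CPM in MLg, at least 1571-fold lower against a floor of 3 counts over the EO771 libraries. Gata6 likewise had no count in EO771 and 19.7, 31.4, 36.1 and 35.2 CPM in MLg. Foxf1, which answers hedgehog signals in lung mesenchyme, averaged 0.0214 CPM in EO771 and 26.8 ± 1.21 CPM in MLg, and the hedgehog effector Gli2 averaged 0.0409 CPM in EO771 and 88.6 ± 8.31 CPM in MLg. Fgf10, the mesenchymal ligand that drives lung branching, was at 0.0285 CPM in EO771 and 48.4 ± 4.58 CPM in MLg. Tbx4 broke the pattern, being higher in EO771, with 23.5, 25.8, 26.6 and 21.7 CPM against 1.84, 4.87, 4.30 and 4.21 CPM in MLg. Of 20 lung mesenchyme genes 14 were tested, and 12 of these fell and 1 rose under the 2-fold test.

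Markers of leukocytes, endothelium, skeletal muscle and lung epithelium were mostly at or near 0. Of 12 leukocyte markers, 8 averaged under 1 CPM in EO771 and 8 in MLg, and their summed level was 65.9 to 77.1 CPM in EO771 and 35.9 to 39.8 CPM in MLg. Ptprc, the pan-leukocyte phosphatase, had no count in EO771 and 0.0615 CPM in MLg, and Adgre1, Tyrobp and Cd3e were at 0 in both. Laptm5, a lysosomal protein usual in blood cells, was nonetheless present in EO771 at 28.8, 34.4, 34.2 and 32.1 CPM and absent from MLg, at least 2889.9-fold higher. Nearly all of the MLg sum, and part of the EO771 sum, thus came from leukocyte markers not named here. Of 6 leukocyte markers tested, 2 rose and 1 fell under the 2-fold test. Of 12 endothelial markers, 9 averaged under 1 CPM in EO771 and 11 in MLg, of 14 skeletal muscle markers 12 in each line, and of 12 lung epithelial markers 11 in EO771 and 10 in MLg. Of 16 neural and neural crest markers, 11 averaged under 1 CPM in EO771 and 10 in MLg. Their summed level was nonetheless 369.7 to 522.3 CPM in EO771 and 204.8 to 272 CPM in MLg. Of 11 tested, 3 rose and 7 fell under the 2-fold test. The plain test called 3 higher, and 5 without MLg R3-2. Nes, the filament protein nestin, gave most of the EO771 sum, averaging 374 ± 63.8 CPM in EO771 and 109 ± 32.4 CPM in MLg. Pax3, a neural crest and muscle precursor factor, had no count in EO771 and 50.3, 52.2, 49.3 and 49.8 CPM in MLg.

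Both type I collagen chains and fibronectin were at most at 2.40 CPM in EO771 and at least at 5434 CPM in MLg in every library. Col1a2, a chain of type I collagen (chromosome 6, 4504814 to 4541544, GRCm38), had 1.26, 0.795, 1.54 and 0.702 CPM in EO771, against 10580.0, 12367, 10542 and 10323 CPM in MLg. Col1a1 (chromosome 11, 94936224 to 94953042) had 1.79, 1.85, 2.40 and 1.94 CPM in EO771 and 6407, 6625, 5447 and 5434 CPM in MLg. Fn1, fibronectin (chromosome 1, 71585520 to 71653200), had 2.02, 1.74, 1.06 and 0.393 CPM in EO771 and 10234, 12317, 10348 and 11502 CPM in MLg. EO771 was thus 10666-fold, 3128-fold and 8854-fold lower in these 3 genes (log2 -13.38 ± 0.24, -11.61 ± 0.17 and -13.11 ± 0.35 SE, edgeR adjusted p = 3.33e-14, adjusted p = 2.30e-14 and adjusted p = 7.40e-13). Per kilobase of exon, mean levels in MLg were 881 RPKM for Col1a2, 911 RPKM for Col1a1 and 950.0 RPKM for Fn1.

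Of 28 collagen chain genes 23 were tested, and of these 14 fell and 2 rose under the 2-fold test, with a median log2 fold change of -3.81. Col3a1, of reticular fibres, averaged 11.7 ± 0.913 CPM in EO771 and 5066 ± 1561 CPM in MLg, and Col5a2 averaged 0.669 ± 0.165 CPM in EO771 and 3106 ± 444 CPM in MLg. The type IV collagens of basement membranes split. Col4a5 had no count in EO771 and averaged 158 ± 17.2 CPM in MLg, at least 7569-fold lower, whereas Col4a1 fell only 1.64-fold, to 522 CPM in EO771 against 819.9 CPM in MLg. The 2 risers were Col7a1, which forms the fibrils that anchor epithelium, with 102, 139, 135 and 96.8 CPM in EO771 and 16.8, 17.5, 12.5 and 13.4 CPM in MLg, and Col5a3, with 40.7, 53.4, 31.6 and 28.6 CPM in EO771 and 16.5, 14.8, 12.4 and 13.4 CPM in MLg. Col7a1 had the largest rise among the tested chains.

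Lama3 and Lamb3, chains of the laminin that anchors epithelium to its basement membrane, both rose. Lama3 had 4.87, 3.95, 6.16 and 5.70 CPM in EO771 and 0.0861, 0.0302, 0.115 and 0.292 CPM in MLg. Lamb3 averaged 1.86 ± 0.550 CPM in EO771 and 0.107 ± 0.0648 CPM in MLg. Lamb1, a chain used in many laminins, rose as well, to 679.5 CPM in EO771 against 257 CPM in MLg. Over 29 tested matrix glycoproteins and proteoglycans, 19 fell and 5 rose under the 2-fold test, and the proteoglycan Bgn, the adhesive glycoprotein Thbs1 and the collagen-binding Sparc averaged 1.27, 1.70 and 138 CPM in EO771, against 5829, 2278 and 2621 CPM in MLg.

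Enzymes that crosslink and remodel matrix were lower in part. Under the 2-fold test 16 of 34 fell and 4 rose. Lox, a lysyl oxidase that crosslinks collagen and elastin, had 0.469, 0.231, 0.114 and 0.112 CPM in EO771 and 350.3, 828, 809 and 746 CPM in MLg. Loxl1 averaged 0.0285 CPM in EO771 and 373 ± 33.9 CPM in MLg. The gelatinase Mmp2 averaged 4.30 ± 0.573 CPM in EO771 and 1145 ± 137 CPM in MLg, and its membrane activator Mmp14 averaged 157 ± 8.04 CPM in EO771 and 1184 ± 126 CPM in MLg. Timp2 and Timp3, metalloproteinase inhibitors, fell too, to 43.4 and 0.0321 CPM in EO771 against 1998 and 256 CPM in MLg. Among the 4 that rose was Plaur, the urokinase receptor, with 80.0, 129.7, 149 and 134 CPM in EO771 and 11.3, 7.16, 9.25 and 8.08 CPM in MLg.

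Contractile genes were mostly lower too. Acta2, smooth muscle actin and the marker of myofibroblasts, had 0.293, 0.590, 0.314 and 0.0842 CPM in EO771 and 494, 444, 488 and 483 CPM in MLg, a 1515-fold lower level (edgeR adjusted p = 1.05e-13). Cald1, caldesmon, fell 4.23-fold, to 341 CPM in EO771 against 1388 CPM in MLg. In all, 10 of 17 contractile genes fell and 1 rose under the 2-fold test. Cadherins of mesenchyme were also the fibroblasts': Cdh2 (N-cadherin) averaged 0.647 CPM in EO771 and 100.4 CPM in MLg, and Cdh11 averaged 2.17 CPM in EO771 and 316 CPM in MLg. Cdh13, a lipid-anchored cadherin, was EO771's, at 41.5, 48.1, 47.0 and 44.1 CPM against 0.560, 0.544, 0.964 and 0.486 CPM in MLg. Integrins stayed near the shares of all genes tested, 20.7% up and 28.1% down under the 2-fold test. Of 17 tested, 4 were up and 5 down, with a median log2 fold change of 0.10. Itgb7, best known from gut-homing lymphocytes, averaged 91.7 ± 7.82 CPM in EO771 and 0.502 ± 0.193 CPM in MLg, and the widely used Itgb1 averaged 946 ± 27.7 CPM in EO771 and 615 ± 27.0 CPM in MLg.

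HOX genes, which record position along the body axis, differed by cluster. Of 15 HOX genes numbered 1 to 5, 13 were tested, and 11 fell and 2 rose, and of 24 numbered 6 to 13, 19 were tested, and 14 fell and 4 rose under the 2-fold test. Hoxa5, which patterns lung and trunk, had no count in EO771 and 9.14, 12.1, 13.2 and 12.3 CPM in MLg. Hoxa7 had 0, 0.0513, 0.0571 and 0.0561 CPM in EO771 and 45.9, 57.2, 54.6 and 59.4 CPM in MLg. Hoxb9 had 0, 0, 0.114 and 0 CPM in EO771 and 115, 119, 124 and 116 CPM in MLg, and Hoxc8 averaged 1.07 ± 0.298 CPM in EO771 and 66.0 ± 3.18 CPM in MLg. In these genes every EO771 library lay below every MLg library.

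The Hoxd cluster was the reverse. Hoxd9 had 22.8, 22.3, 27.1 and 21.1 CPM in EO771 and no count in MLg, at least 2074-fold higher. Hoxd8 had 17.5, 15.2, 15.8 and 13.5 CPM in EO771 and 0.0287, 0, 0 and 0.0324 CPM in MLg, and Hoxd10 had 13.5, 9.18, 11.4 and 11.8 CPM in EO771 and 0, 0.0302, 0.0864 and 0 CPM in MLg. Hoxd3 and Hoxd4 averaged 0.405 and 1.01 CPM in EO771 and had no count in MLg. Hoxc10 was the only HOX gene outside the Hoxd cluster to rise under the 2-fold test, with 13.9, 13.0, 12.4 and 15.6 CPM in EO771 and 3.11, 6.73, 5.73 and 5.54 CPM in MLg. All 6 HOX genes that rose were thus Hoxd3, Hoxd4, Hoxd8, Hoxd9, Hoxd10 and Hoxc10.

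**Figure D4:**
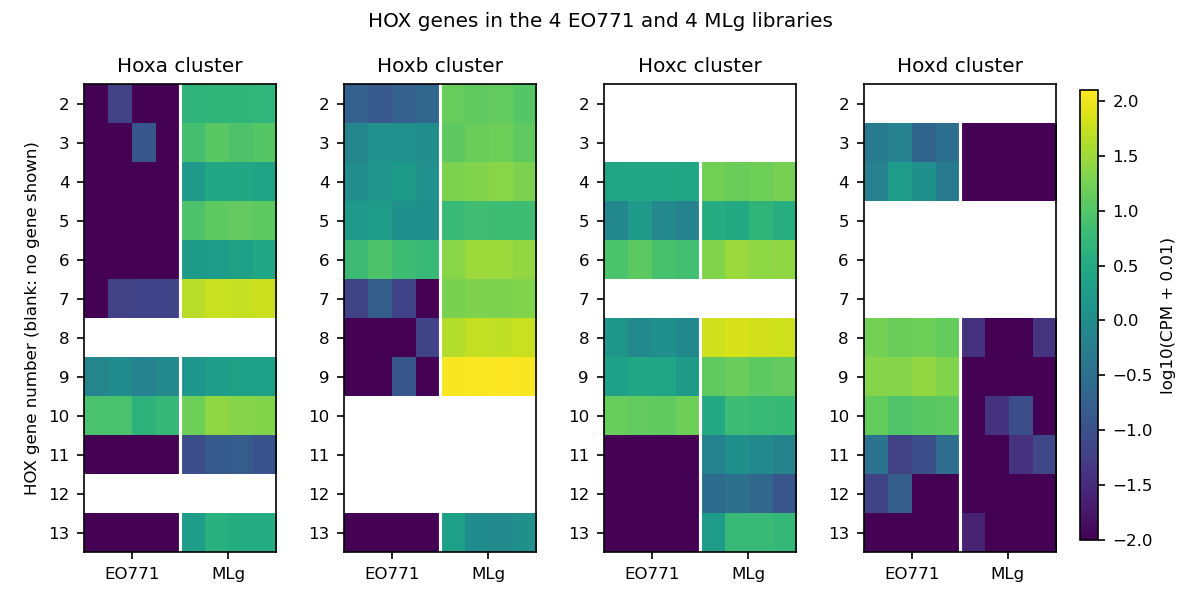
Level of HOX genes numbered 2 to 13 in the 4 EO771 (left) and 4 MLg (right) libraries of each cluster, as log10 of CPM plus 0.01. Hoxa2 to Hoxa7 and Hoxb7 to Hoxb9 are dark in EO771 and bright in MLg, whereas Hoxd8 to Hoxd10 are bright in EO771 and dark in MLg.

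Genes of cell division were higher in EO771, and those of G2 and mitosis had the largest share of risers among lists with at least 10 tested members. Of 28 genes of G2 and mitosis, 27 rose under the 2-fold test and 0 fell, with a median log2 fold change of 2.08, and of 32 genes of S phase and DNA replication 23 rose under the 2-fold test, 30 under the plain test, and 0 fell under either, with a median of 1.54. All 60 genes passed the filter on low counts. Summed over the list, G2 and mitosis genes took 4527 to 5118 CPM in EO771 and 1166 to 1332 CPM in MLg. The promoters of 4 of these genes are shown because they carry the short elements through which cell-cycle genes are known to be timed. The cell-cycle homology region (CHR) is bound by the DREAM and MYB-MuvB complexes, and the E2F site by E2F factors. Each sequence runs 5′ to 3′ on the gene's strand over 250 bases before and 50 after the RefSeq start (GRCm38.p6), with the searched element in capitals.
Cdc20 promoter, chr4:118437294-118437593, minus strand: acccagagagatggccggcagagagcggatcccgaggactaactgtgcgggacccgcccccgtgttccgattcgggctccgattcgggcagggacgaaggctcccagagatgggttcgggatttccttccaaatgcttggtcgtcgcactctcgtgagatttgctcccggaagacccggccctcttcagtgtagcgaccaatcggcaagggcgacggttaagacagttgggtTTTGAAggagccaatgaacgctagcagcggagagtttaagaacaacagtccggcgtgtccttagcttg
Aurka promoter, chr2:172370521-172370820, minus strand: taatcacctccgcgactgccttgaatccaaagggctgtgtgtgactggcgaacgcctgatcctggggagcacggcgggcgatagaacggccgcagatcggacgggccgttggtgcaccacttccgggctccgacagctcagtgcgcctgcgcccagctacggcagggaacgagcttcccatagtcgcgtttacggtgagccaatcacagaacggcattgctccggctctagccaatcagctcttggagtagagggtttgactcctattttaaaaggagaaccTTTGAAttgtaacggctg
Cdt1 promoter, chr8:122567765-122568064, plus strand: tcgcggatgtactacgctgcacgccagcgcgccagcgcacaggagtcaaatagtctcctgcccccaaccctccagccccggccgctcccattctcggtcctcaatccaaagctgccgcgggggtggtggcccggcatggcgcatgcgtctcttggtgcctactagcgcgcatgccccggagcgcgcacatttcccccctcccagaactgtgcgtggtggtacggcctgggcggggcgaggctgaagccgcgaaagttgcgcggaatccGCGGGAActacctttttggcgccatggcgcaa
Rfc4 promoter, chr16:23127681-23127980, minus strand: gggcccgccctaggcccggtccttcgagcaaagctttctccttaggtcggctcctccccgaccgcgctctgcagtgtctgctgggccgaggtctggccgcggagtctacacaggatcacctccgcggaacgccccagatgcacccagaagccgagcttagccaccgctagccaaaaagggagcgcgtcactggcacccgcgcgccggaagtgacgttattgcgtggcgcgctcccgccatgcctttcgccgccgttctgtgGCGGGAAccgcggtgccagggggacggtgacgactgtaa
The CHR letters TTTGAA, searched on both strands, were found in 16 of 22 G2 and mitosis genes with a RefSeq promoter (72.7%), against 20.2% of the 27025 genes of the table (17.9% of its 32851 promoters). The E2F letters TTCCCGC, on both strands, were in 10 of 25 S phase genes with a promoter (40.0%), against 5.29% of all genes. In Cdc20 the element lay 18 bases before the start, and in Aurka 33 bases after it. In Cdt1 and Rfc4 it was read on the opposite strand, 19 and 12 bases after the start. A match is a description of letters, not of binding.

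Cdc20, the activator of the anaphase-promoting complex, had 145, 122, 149 and 158 CPM in EO771 and 12.3, 15.3, 14.5 and 13.9 CPM in MLg, 9.85-fold higher (log2 3.30 ± 0.10 SE, edgeR adjusted p = 3.38e-12). Aurka, the mitotic kinase aurora A, had 128, 112, 105 and 122 CPM in EO771 and 12.4, 15.1, 13.2 and 16.2 CPM in MLg. Plk1, another mitotic kinase, averaged 153 ± 11.7 CPM in EO771 and 20.9 ± 1.98 CPM in MLg, and cyclin B1 (Ccnb1) averaged 237 ± 38.1 CPM in EO771 and 32.9 ± 3.70 CPM in MLg. All libraries of EO771 lay above all of MLg in these genes. Cdt1, which licenses replication origins, had 95.9, 83.7, 102 and 105 CPM in EO771 and 11.0, 6.89, 6.33 and 6.27 CPM in MLg. Mcm10, which helps start the replication fork, had 161, 165, 157 and 141 CPM in EO771 and 15.4, 11.7, 11.2 and 11.2 CPM in MLg. Rrm2, the regulated subunit of ribonucleotide reductase, averaged 328 ± 25.2 CPM in EO771 and 26.9 ± 2.21 CPM in MLg, and the clamp loader subunit Rfc4 averaged 33.2 ± 5.97 CPM in EO771 and 6.85 ± 0.581 CPM in MLg. Both differed by more than 4-fold.

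The usual proliferation marker was not among the genes that rose. Mki67 had 114, 121, 137 and 132 CPM in EO771 and 130.2, 147, 124 and 141 CPM in MLg, the groups overlapped, and edgeR did not call it (log2 -0.16 ± 0.09 SE, adjusted p = 0.0938), though without MLg R6-1 it was called lower in EO771 (log2 -0.22, adjusted p = 0.0334). Its promoter holds the CHR letters too. The other 27 G2 and mitosis genes were all called. In S phase 2 genes were not called. Gins2, of the replicative helicase, averaged 18.7 ± 0.804 CPM in EO771 and 15.6 ± 1.35 CPM in MLg (edgeR adjusted p = 0.0682), and E2f1, a driver of S phase genes, averaged 52.3 ± 6.06 CPM in EO771 and 49.9 ± 5.64 CPM in MLg (edgeR adjusted p = 0.931). Without MLg R3-2, Gins2 was called higher in EO771 (log2 0.25, edgeR adjusted p = 0.0313).

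Brakes on the cycle differed one by one. Cdkn2a and Cdkn2b, the INK4 inhibitors often deleted from lines that grow without limit, had no count in any EO771, MLg or C2C12 library grown alone, while their neighbour Mtap was expressed in both, at 157, 143, 169 and 167 CPM in EO771 and 49.9, 46.5, 47.8 and 44.4 CPM in MLg. Cdkn1a, the p53-responsive inhibitor p21, averaged 34.8 ± 4.08 CPM in EO771 and 28.6 ± 2.07 CPM in MLg, a difference that passed the plain test narrowly (edgeR adjusted p = 0.0464) and failed it in 9 alternatives. Cdkn1b, p27, averaged 127 ± 9.94 CPM in EO771 and 173 ± 15.6 CPM in MLg. Of 13 tested G1 cyclins and CDK inhibitors, 2 rose and 4 fell under the 2-fold test, beside 20.7% and 28.1% of all genes tested. Cyclin D2 (Ccnd2) rose to 935 CPM in EO771 against 362 CPM in MLg, and the kinase Cdk6 to 239 CPM in EO771 against 48.4 CPM in MLg. Cyclin D3 (Ccnd3) fell to 28.1 CPM in EO771 against 78.1 CPM in MLg, and the pocket protein Rbl2 to 19.06 CPM in EO771 against 65.7 CPM in MLg.

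Trp53, which encodes p53, was expressed in both lines, with 250.3, 251, 259 and 252 CPM in EO771 and 129, 132, 136 and 129 CPM in MLg, 1.85-fold higher and not past the 2-fold test. Its target genes did not move as one, with 5 of 22 up and 8 down under the 2-fold test. Among all genes tested these shares were 20.7% up and 28.1% down. Btg2, an antiproliferative target, had 0.499, 0.308, 0.114 and 0.0561 CPM in EO771 and 68.6, 49.1, 49.5 and 41.7 CPM in MLg, and Trp53inp1 averaged 2.84 ± 0.501 CPM in EO771 and 139.7 ± 20.9 CPM in MLg. Mdm2, the ligase that limits p53, averaged 78.6 ± 1.24 CPM in EO771 and 88.5 ± 4.88 CPM in MLg. Sesn2, which also answers amino acid shortage, rose 6.59-fold, to 131 CPM in EO771 against 19.0 CPM in MLg.

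Myc, the growth-promoting transcription factor (chromosome 15, 61985391 to 61990374), was far higher in EO771. It had 638, 790.4, 732 and 669 CPM in EO771 and 31.5, 15.3, 18.3 and 20.4 CPM in MLg, 31.6-fold higher (log2 4.98 ± 0.21 SE, edgeR adjusted p = 7.10e-11). Odc1, the rate-limiting enzyme of polyamine synthesis and a classical MYC target, had 1885, 1766, 1616 and 1692 CPM in EO771 and 60.4, 47.4, 52.5 and 50 CPM in MLg. Tfrc, the transferrin receptor, averaged 728 ± 79.9 CPM in EO771 and 22.8 ± 3.46 CPM in MLg, and Nop56, of ribosome assembly, averaged 772 ± 38.4 CPM in EO771 and 92.2 ± 24.3 CPM in MLg. Mxd4, which competes with MYC for its partner MAX, was low in EO771, at 2.99, 3.77, 3.91 and 2.98 CPM, and high in MLg, at 135, 158, 169 and 148 CPM. In C2C12 alone Myc averaged 51.0 CPM and Odc1 31.9 CPM, both nearer to MLg than to EO771.

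Of 23 tested genes of the MYC and RAS list, 8 rose and 3 fell under the 2-fold test. Dusp4, a phosphatase induced by ERK, had 236, 273, 317 and 289.6 CPM in EO771 and 25.0, 11.0, 12.2 and 11.1 CPM in MLg. Fosl1, the AP-1 member stabilised by ERK, had 25.8, 32.4, 30.8 and 39.1 CPM in EO771 and 2.02, 0.831, 1.05 and 1.02 CPM in MLg. Etv4 and the feedback inhibitor Spry4 averaged 64.1 and 46.8 CPM in EO771, against 4.53 and 3.44 CPM in MLg. Not all ERK-responsive genes rose: the phosphatase Dusp6 averaged 59.95 ± 6.51 CPM in EO771 and 49.6 ± 16.0 CPM in MLg, and Spry2 averaged 58.0 ± 7.08 CPM in EO771 and 57.3 ± 14.3 CPM in MLg, and neither was called (edgeR adjusted p = 0.288 and adjusted p = 0.82). Without MLg R3-2, Dusp6 was called higher in EO771 (log2 0.45, edgeR adjusted p = 0.00439).

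Immediate early and heat shock genes split, with 5 of 18 up and 8 down under the 2-fold test. Among all genes tested 20.7% were up and 28.1% down. Egr1 had 0.352, 0.154, 0.114 and 0.281 CPM in EO771 and 451, 483, 333 and 363 CPM in MLg, and Fos had 3.67, 1.36, 2.28 and 6.60 CPM in EO771 and 245, 155, 152 and 93.3 CPM in MLg. Hsp90aa1, a chaperone, averaged 1492 ± 55.8 CPM in EO771 and 243 ± 12.0 CPM in MLg. These genes also answer handling of cells, whose part in the difference was not tested.

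Most glycolysis genes rose. Of 23 tested genes 19 rose and 4 fell, with 14 up and 3 down under the 2-fold test and a median log2 fold change of 1.58. Slc2a3, the high-affinity glucose transporter GLUT3, had 49.8, 67.3, 52.2 and 53.02 CPM in EO771 and 0.143, 0.136, 0.115 and 0 CPM in MLg, 516-fold higher. Slc2a1 (GLUT1) rose less, with 169 ± 17.7 CPM in EO771 and 52.4 ± 5.64 CPM in MLg. Gapdh had 5199, 5071, 5189 and 5297 CPM in EO771 and 358, 442, 425 and 436 CPM in MLg, 12.0-fold higher (edgeR adjusted p = 9.28e-13), and is a gene with many processed pseudogenes that can take its reads. Gapdh is often used to scale measurements between samples.

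The lactate dehydrogenase subunits differed in opposite directions. Ldha, the lactate dehydrogenase subunit that favours lactate, had 1868, 1628, 1803 and 1840.3 CPM in EO771 and 265, 256, 247 and 279.5 CPM in MLg. Ldhb, the other subunit, had no count in any EO771 library and 111, 149.6, 131 and 148 CPM in MLg, at least 6446-fold lower. Slc16a3, the lactate exporter MCT4, had 278, 356, 402 and 385 CPM in EO771 and 1.15, 2.13, 1.47 and 1.18 CPM in MLg, 229.8-fold higher (log2 7.84 ± 0.20 SE, edgeR adjusted p = 6.52e-13). EO771 thus had Ldha without Ldhb, and MLg had both. The enolases also differed in opposite directions, both being present in each line, with Eno1 at 1075 CPM in EO771 and 140.3 CPM in MLg, and Eno2 at 17.9 CPM in EO771 and 239 CPM in MLg.

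Oxidative phosphorylation genes had the smallest share of calls under the 2-fold test among the plotted lists. Of 28 genes, 2 rose and 1 fell under the 2-fold test, and the median log2 fold change was 0.08. The risers were Atp5b, of ATP synthase, with 1331 ± 82.2 CPM in EO771 and 577 ± 14.0 CPM in MLg, and Cyc1, cytochrome c1, with 119 ± 6.90 CPM in EO771 and 41.5 ± 1.36 CPM in MLg. Ndufa1, of complex I, fell to 48.0 CPM in EO771 against 109 CPM in MLg.

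**Figure D5:**
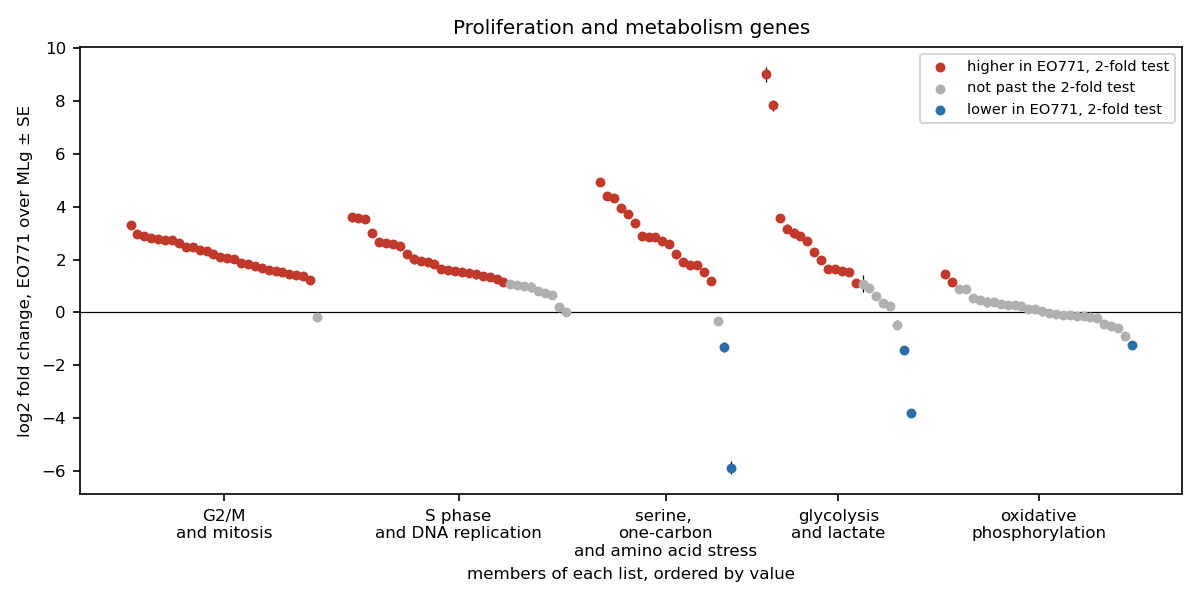
Log2 fold change (EO771 over MLg) ± SE from edgeR for each member of 5 lists, ordered by value within a list; Ldhb, with no count in EO771, has no finite fold and is left out. All but 1 of the G2 and mitosis genes lie above 1, whereas oxidative phosphorylation genes lie around 0.

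Serine, one-carbon and amino acid stress genes rose together, with 17 of 20 up and 2 down under the 2-fold test and a median log2 fold change of 2.66. Many are targets of ATF4, which acts through C/EBP-ATF response elements (CARE). The promoters of a transcription factor and a transporter of the list are shown with the CARE letters TGATGCAA, or their reverse complement, in capitals.
Atf3 promoter, chr1:191183284-191183583, minus strand: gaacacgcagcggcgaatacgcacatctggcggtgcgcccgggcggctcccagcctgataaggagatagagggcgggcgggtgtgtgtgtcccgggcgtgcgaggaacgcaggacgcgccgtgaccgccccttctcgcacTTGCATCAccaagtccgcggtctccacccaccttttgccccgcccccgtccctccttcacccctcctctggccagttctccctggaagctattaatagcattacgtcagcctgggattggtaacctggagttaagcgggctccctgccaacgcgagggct
Slc7a11 promoter, chr3:50443564-50443863, minus strand: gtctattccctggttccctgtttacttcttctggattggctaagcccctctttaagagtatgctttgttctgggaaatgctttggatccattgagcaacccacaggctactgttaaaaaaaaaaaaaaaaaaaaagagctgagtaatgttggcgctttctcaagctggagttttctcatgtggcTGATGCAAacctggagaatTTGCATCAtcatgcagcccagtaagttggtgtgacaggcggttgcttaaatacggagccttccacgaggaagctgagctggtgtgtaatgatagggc
These letters were in 3 of 18 list genes with a RefSeq promoter (16.7%), namely Atf3, Chac1 and Slc7a11, against 1.03% of all genes. Slc7a11, the cystine importer, holds 2 matches, 66 and 47 bases before the start. It had 147, 226, 215 and 189.6 CPM in EO771 and 31.5, 23.5, 23.6 and 25.4 CPM in MLg, 7.17-fold higher. Atf3 had 27.8, 22.2, 18.4 and 25.9 CPM in EO771 and 1.54, 1.35, 1.42 and 1.52 CPM in MLg.

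The enzymes of serine synthesis all rose. Phgdh, which draws the glycolytic intermediate into the pathway, averaged 754 ± 13.9 CPM in EO771 and 119.9 ± 10.3 CPM in MLg. Psat1 averaged 690.2 ± 37.2 CPM in EO771 and 144 ± 6.47 CPM in MLg, and Psph, the last step, had 243, 208, 222 and 229.6 CPM in EO771 and 11.2, 10.2, 11.1 and 10.8 CPM in MLg. Shmt2, which passes the carbon of serine to folate in mitochondria, had 991, 1235, 1118 and 1096 CPM in EO771 and 95.6, 78.1, 71.3 and 75.1 CPM in MLg. Of amino acid supply, the leucine carrier Slc7a5 had 826, 972, 969 and 902 CPM in EO771 and 30.4, 25.6, 27.6 and 31.5 CPM in MLg, and asparagine synthetase (Asns) averaged 624 ± 45.6 CPM in EO771 and 57.7 ± 9.03 CPM in MLg. Trib3, a pseudokinase induced by ATF4, had 205, 201, 199.7 and 212 CPM in EO771 and 11.4, 7.98, 8.88 and 8.46 CPM in MLg, and Atf4 itself rose 2.89-fold. Aldh1l1, a cytosolic folate enzyme, was an exception, with 0.211 CPM in EO771 and 12.0 CPM in MLg.

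Cholesterol synthesis genes did not move together, with 2 of 23 up and 5 down under the 2-fold test and a median log2 fold change of -0.53. The count of 2 up became 1 or 4 in 2 alternatives, DESeq2 and the fit without MLg R3-2. Among the enzymes, Fdft1 and Ebp fell, to 44.4 and 33.7 CPM in EO771 against 143 and 136 CPM in MLg. Redox genes were divided, with 6 of 23 up and 9 down under the 2-fold test, beside 20.7% and 28.1% of all genes tested. Gclc, the rate-limiting enzyme of glutathione synthesis, averaged 217 ± 14.6 CPM in EO771 and 51.9 ± 6.66 CPM in MLg, and Gstm1, a glutathione transferase, averaged 12.0 ± 1.67 CPM in EO771 and 223 ± 24.6 CPM in MLg. Hypoxia genes were divided likewise, with 6 of 23 up and 9 down. Car12, a surface carbonic anhydrase, had 55.8, 70.2, 77.5 and 79.0 CPM in EO771 and 0.258, 0.151, 0.0864 and 0.162 CPM in MLg, whereas the lipoprotein receptor Vldlr had 0, 0, 0.0571 and 0 CPM in EO771 and 145, 92.8, 126 and 123 CPM in MLg. Hif1a averaged 346 ± 11.9 CPM in EO771 and 173 ± 6.73 CPM in MLg.

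Among receptors, 11 of 21 growth factor receptors fell and 4 rose under the 2-fold test. Fgfr2 had no count in EO771 and 196, 175, 195 and 197 CPM in MLg, at least 9146-fold lower. Lifr, the receptor for leukaemia inhibitory factor, averaged 0.0275 CPM in EO771 and 229 ± 21.1 CPM in MLg, and Osmr, the oncostatin M receptor, averaged 1.47 ± 0.415 CPM in EO771 and 385 ± 38.7 CPM in MLg. Their shared partner Il6st (gp130) was kept in EO771 at a lower level, 118 ± 12.3 CPM, against 976 ± 85.1 CPM in MLg. Epha2, an ephrin receptor kinase, rose, with 183, 243, 259 and 205 CPM in EO771 and 25.5, 18.8, 18.7 and 21.3 CPM in MLg, and Met, the receptor for hepatocyte growth factor, averaged 219 ± 16.5 CPM in EO771 and 69.9 ± 8.09 CPM in MLg. Hgf, the ligand of Met, averaged 0.216 CPM in EO771 and 31.4 ± 9.60 CPM in MLg, so receptor and ligand were high in different lines.

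Of 30 tested growth factor ligands, 7 rose and 16 fell under the 2-fold test. Ereg, a ligand of the EGF receptor, averaged 52.9 ± 5.42 CPM in EO771 and 10.7 ± 1.73 CPM in MLg, beside Areg above. Igf1 had no count in EO771 and 25.4, 51.4, 48.0 and 45.2 CPM in MLg. Of 27 TGF-beta and BMP genes, 20 fell and 1 rose under the 2-fold test, with a median log2 fold change of -3.26. Tgfbr2, the ligand-binding TGF-beta receptor, had 6.81, 7.52, 6.39 and 7.41 CPM in EO771 and 260.1, 272, 265 and 284 CPM in MLg, 40.0-fold lower (edgeR adjusted p = 2.78e-14). Bmp4 averaged 0.0202 CPM in EO771 and 90.2 ± 6.91 CPM in MLg, and its secreted antagonist Grem1 had 0.0880, 0.359, 0.228 and 0.168 CPM in EO771 and 3854, 3062, 3052 and 2961 CPM in MLg. The riser was Smad7, an inhibitor of the pathway, with 62.9 ± 12.3 CPM in EO771 and 19.4 ± 3.12 CPM in MLg.

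Wnt genes were lower in EO771 as well, 15 of 25 against 5 that rose. Fzd1, a Wnt receptor, had no count in EO771 and 292, 352, 381 and 401 CPM in MLg, at least 17019-fold lower. The secreted Wnt antagonist Sfrp1 averaged 0.0271 CPM in EO771 and 638 ± 100.1 CPM in MLg, and Dkk3 averaged 0.00714 CPM in EO771 and 436 ± 94.2 CPM in MLg. Wnt10b, a ligand active in mammary development, was an exception at 9.86, 9.41, 7.99 and 6.88 CPM in EO771 and 0.0574, 0.0302, 0.0288 and 0 CPM in MLg.

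Chemokines went both ways. Cxcl12, the stromal ligand of CXCR4, had 0.0587, 0.0513, 0.257 and 0 CPM in EO771 and 2466, 3912, 4286 and 4069 CPM in MLg, 41173-fold lower (log2 -15.33 ± 0.36 SE, edgeR adjusted p = 2.87e-13). Ccl2, which draws monocytes, was made by both, with 90.0, 68.5, 77.9 and 65.4 CPM in EO771 and 747, 347, 465 and 429 CPM in MLg. Cxcl1, which draws neutrophils, was higher in EO771, with 160.0, 154, 103 and 117 CPM against 49.9, 60.3, 55.4 and 46.5 CPM in MLg. In all 8 of 22 chemokine and cytokine genes rose and 12 fell under the 2-fold test. Il1rn, the antagonist of the interleukin-1 receptor, averaged 1.57 CPM in EO771 and 663 ± 133 CPM in MLg. Acute phase and complement genes were mostly lower, 9 of 12 tested against 1 that rose. C3, the central complement component, had 57.2, 63.4, 44.3 and 24.3 CPM in EO771 and 3821, 2686, 1938 and 2239 CPM in MLg, and C4b averaged 0.0427 CPM in EO771 and 195 ± 48.4 CPM in MLg.

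Antigen presentation genes were lower in EO771, 9 of 21 under the 2-fold test against 1 that rose. B2m, the light chain of MHC class I, had 352, 263, 270.4 and 318 CPM in EO771 and 1575, 1332, 1439 and 1469 CPM in MLg, 5.04-fold lower (edgeR adjusted p = 2.37e-10). Tapbp, tapasin, which loads peptide, averaged 52.4 ± 5.45 CPM in EO771 and 552 ± 109 CPM in MLg. The heavy chains depended on MLg R3-2. H2-K1 had 52.7, 54.7, 40.2 and 47.3 CPM in EO771 and 285, 116, 133 and 119 CPM in MLg, with a log2 fold change of -1.81, or -1.38 without R3-2. H2-D1 had 289, 352, 292 and 303 CPM in EO771 and 877, 368, 407 and 406 CPM in MLg, with -0.80, or -0.40 without R3-2, where the edgeR adjusted p was 0.000657. These genes share sequence with each other, so reads may be split among them. The riser was Psmb8, an immunoproteasome subunit, at 10.4, 8.49, 5.79 and 6.82 CPM in EO771 and 0.717, 0.348, 0.648 and 0.130 CPM in MLg. Psmb9, another such subunit, fell under the 2-fold test, averaging 1.23 ± 0.282 CPM in EO771 and 14.2 ± 3.17 CPM in MLg.

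Interferon-response genes split within the list, with 19 of 32 down and 5 up under the 2-fold test and a median log2 fold change of -2.26. Gbp2, an interferon-induced GTPase, averaged 0.371 ± 0.125 CPM in EO771 and 52.7 ± 2.92 CPM in MLg. Rsad2, the antiviral enzyme viperin, had 12.4, 9.47, 5.48 and 6.71 CPM in EO771 and 0.0574, 0.0907, 0.144 and 0.162 CPM in MLg, and Oas1a, a sensor of double-stranded RNA, had 4.61, 4.95, 3.31 and 4.66 CPM in EO771 and 0.143, 0.0302, 0.0432 and 0.0648 CPM in MLg. The 5 that rose were Isg15, Oas1a, Oas3, Oasl1 and Rsad2. Of ligands for immune checkpoints, Pvr rose 4.00-fold, to 207 CPM in EO771 against 49.8 CPM in MLg. Cd274 (PD-L1) had 5.31, 4.82, 5.54 and 4.83 CPM in EO771 and 2.07, 2.34, 2.01 and 1.85 CPM in MLg. It just missed the 2-fold test (edgeR adjusted p = 0.0508). Of 13 genes of the list tested, 1 rose and 5 fell under that test, beside 20.7% and 28.1% of all genes tested. The count up was 2 in 9 alternatives, among them the fit without MLg R3-2. The plain test called 4 higher and 9 lower, and the median log2 fold change was -0.54. Those that fell included Entpd1, at 0.169 CPM in EO771 and 69.8 CPM in MLg, and Cd80, at 0.468 CPM in EO771 and 11.9 CPM in MLg.

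Imprinted genes, which are read from 1 parental copy, were mostly near 0 in EO771. Of 26 listed, 19 averaged under 1 CPM in EO771 and 6 in MLg. Of 22 tested, 17 fell and 3 rose under the 2-fold test, and 13 of the 26 listed had no count in EO771 against 2 in MLg. Peg3, an imprinted zinc finger gene, had 0, 0, 0.228 and 0 CPM in EO771 and 277, 465, 509.7 and 483 CPM in MLg. Plagl1, a regulator of growth, had no count in EO771 and 92.1, 71.1, 68.7 and 69.5 CPM in MLg, and Sgce had none in EO771 and 39.5, 101, 107 and 107 CPM in MLg. Grb10, an inhibitor of insulin signalling, averaged 0.235 CPM in EO771 and 502 ± 48.2 CPM in MLg, and Igf2r, which clears IGF2, averaged 15.1 ± 1.77 CPM in EO771 and 787 ± 62.9 CPM in MLg. The risers included Impact, a regulator of translation control, with 99.9, 107, 137 and 124 CPM in EO771 and 12.4, 11.8, 14.1 and 14.8 CPM in MLg, and Phlda2, with 9.94, 7.13, 9.08 and 10.3 CPM in EO771 and no count in MLg.

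Xist, the RNA that coats the inactive X chromosome, had 0.293, 0.154, 0.285 and 0.112 CPM in EO771 and 1317, 1668, 2002 and 1607 CPM in MLg, 8109.7-fold lower (edgeR adjusted p = 2.91e-14). In C2C12 alone it averaged 852 CPM. Ddx3y, on the Y chromosome, had no count in any library of either line. The 1 tested gene assigned to that chromosome, the predicted gene Gm20775, had no count in EO771 and averaged 0.611 ± 0.118 CPM in MLg (SD, n = 4). Xist was thus high in MLg and in C2C12 and near 0 in EO771. Germline genes were few, 5 of 21 reaching the filter. Tex19.1, normally made in germ cells and placenta, had 108, 98.7, 114 and 114 CPM in EO771 and no count in MLg, at least 9648-fold higher. Lin28b, an inhibitor of let-7 maturation, averaged 29.8 ± 3.17 CPM in EO771 and 0.961 ± 0.382 CPM in MLg.

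Some genes were read in a single line. With 0 counts in all 4 libraries of one line and at least 1 CPM in each library of the other, 114 genes were EO771's and 435 were MLg's, and after thinning each library to 34088050 counts the numbers were 125 and 436. The protein-coding genes with the highest CPM on EO771's side, after Tex19.1, were Galnt3, which starts mucin-type O-glycans, with 102, 107, 97.1 and 95.2 CPM, F2rl1, a protease-activated receptor, with 38.4, 55.3, 53.6 and 54.1 CPM, and the TNF-receptor family member Cd40, with 37.9, 42.8, 48.6 and 33.3 CPM. On MLg's side, besides Fzd1, Fgfr2, Col4a5 and Ldhb, they included the myelin and membrane protein Pmp22, with 346, 393, 378 and 414 CPM, Trim44 with 186, 181, 198 and 180.2 CPM, and the secreted Islr with 198, 239, 194 and 199 CPM. None of these had a single count in the other line, so each fold is a bound: at least 8958-fold and 4504-fold higher for the first 2, and at least 18289-fold and 8928-fold lower for Pmp22 and Trim44.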

How the data were processed

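Whole-number counts per gene, 1 file per library, were deposited by the authors for EO771 alone and MLg alone (4 libraries each). Per the submitters' processing notes reads went through STAR 2.7.10a and featureCounts of Subread 2.0.1, and fastp and DESeq2 are also named; for settings, strand and alignment build, nothing is given in the sources used here. Gene identifiers were paired with symbols, GRCm38 coordinates and exon lengths from GENCODE M21, and promoters were taken from RefSeq (GRCm38.p6). From the deposited counts, the groups were compared with edgeR 4.0.16 in R 4.3.3: TMM scaling, filterByExpr, glmQLFTest and, for the 2-fold test, glmTreat, with Benjamini-Hochberg adjustment over all 16970 genes tested. SE is the size of the log2 fold change over the root of F. The test was checked on simulated counts in which 200 genes were changed, evenly in both directions. That is far fewer than the 14045 called here, so the check does not cover a comparison of this breadth. Alternatives were DESeq2 1.42.0, other scalings and filters, larger fits, a replicate block and leaving out each library. Library numbers were not taken as pairs. Depth was 34088050 to 38984827 counts in EO771 and 61734484 to 69688319 counts in MLg; floors are 3 counts over a group's summed total and cover counting error only. Replicate libraries differed beyond sampling noise, so none was merged. Members, gene lists and tests were chosen with earlier results of these data known, and list counts carry no test. List symbols shared by 2 identifiers (2 in all) were left out. Named genes were a panel of identity genes, the 10 largest folds and the 10 most abundant genes each way, and up to 3 members of each list each way; the text names a subset, and other list members named were chosen after their values were seen. Some list members are not reported here.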

Additional observations from a re-analysis of the deposited data

Results flagged for a closer look

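Among the genes named above, 299 groups of 4 libraries had a highest library of at least 1 CPM. In 27 of these groups 1 library stood apart. Its gap to the nearest other library, over the range of the group, exceeded Dixon's 95% critical value. Chance flags about 1 in 20 groups. Of the 27, 19 were MLg R3-2, 4 were MLg R5-2, 2 were EO771 R3-1, 1 was EO771 R3-2 and 1 was EO771 R6-2.

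In EO771, R3-1 stood below the others for Sesn2 at 114 CPM and for F2rl1 at 38.4 CPM, R3-2 for Psat1 at 634 CPM, and R6-2 for Il1rn at 0.954 CPM.

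In MLg, R3-2 stood above the other 3 libraries for Itga6 (33.7 CPM), Cdt1 (11.0 CPM), Mcm10 (15.4 CPM), Tfrc (28.0 CPM), Dusp4 (25.0 CPM), Nop56 (129 CPM), Nes (157 CPM), Atf4 (285 CPM), Ebp (150 CPM), Grem1 (3850 CPM), H2-K1 (285 CPM), H2-D1 (877 CPM) and Plagl1 (92.1 CPM). It stood below them for Zeb2 (75 CPM), Dcn (1640 CPM), Ndufa1 (89.3 CPM), Dkk3 (295 CPM), Grb10 (430 CPM) and Sgce (39.5 CPM). MLg R5-2 stood above for Col1a2 (12400 CPM), Islr (239 CPM) and E2f1 (58.3 CPM), and below for Fgfr2 (175 CPM). MLg R3-2 is also the library whose mitochondrial share, 9.14%, lay above that of the others, and the part of this share in the gene levels was not tested.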

How the results depend on the processing

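The 6 counts of genes stayed within 1.5 times their value under all 86 alternatives computed for them. Leaving out each library in turn gave 6330 to 6642 genes called higher in EO771 and 7253 to 7934 lower, 3475 to 3676 and 4629 to 5164 under the 2-fold test, and 115 to 145 genes read in EO771 only and 436 to 502 in MLg only. The other alternatives gave 5505 to 7587 higher and 6142 to 9259 lower, and 2772 to 4274 and 3709 to 6026 under the 2-fold test. With the R number as a replicate block, edgeR called 6429 genes higher and 7470 lower, and 3463 and 4771 under the 2-fold test. Same-numbered libraries did not deviate together (correlations of their deviations from the group means of 0.00, -0.03 and -0.01), and Cdkn1a lost its call under the block (adjusted p = 0.119). Of 3192 recomputed values for 188 named genes, 3158 kept their direction and their side of the threshold. Cdkn1a lost its call in 9 alternatives (adjusted p 0.0806 to 0.462), Mdm2 in 2 (0.0991 and 0.141, with all 28 libraries or the 12 grown alone in the fit) and Ddr2 in 2 (0.0549 with all 28 libraries and 0.0837 with no filter on low counts). Gains of a call were 5 for Gins2, 2 for Mki67 and 1 each for Vim and Dusp6. Signs changed in 2 uncalled genes near 0, and the cause was not tested. E2f1 was at -0.0665 (log2) with no filter, and between -0.061 and 0.0855 over the left-out libraries. Spry2 was at 0.0104 with all 28 libraries, 0.023 with the 12 grown alone, 0.0165 with library totals, 0.0229 with upper-quartile scaling and 0.0961 with the block, and between -0.174 and 0.0821 over the left-out libraries. Of 188 counts over gene lists, 53 moved by over 1.5 times in at least 1 alternative (142 of 3196 recomputations), and 47 of these were counts under 5. The other 6 were 12 epithelial junction genes called higher (6) and 5 called lower (3), and 5 Wnt genes up, 5 integrins down and 5 epithelial junction genes down under the 2-fold test (3 each), all with the filter of 1 CPM in 4 libraries, the last also with DESeq2, and 5 G1 genes called higher (3 in 6 alternatives). Thinning and the left-out libraries for genes read in one line were chosen after seeing the data. MLg libraries were deeper than EO771 libraries, and each line had 4 libraries.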

Other observations

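The following values were looked for after seeing the data, and no explanation of them was tested. Genes of the X chromosome were lower in EO771 as a group: of 537 tested, 246 fell and 88 rose under the 2-fold test, with a median log2 fold change of -1.07, which ranged from -1.09 to -0.99 over the alternatives. Chromosome 12 had a median of 0.68 over 569 genes (0.61 to 0.75), and chromosome 1 a median of -0.56 over 1013 genes (-0.73 to -0.50), against -0.12 over all genes tested.

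Some genes near 0 in EO771 were neighbours in the order of expressed protein-coding genes along a chromosome. Of 12378 protein-coding genes with a mean of at least 1 CPM in either line, 918 averaged under 0.1 CPM in EO771 and 333 in MLg. Runs of at least 4 such neighbours numbered 22 in EO771, with 107 of the 918 genes, and 2 in MLg, with 10 of the 333. Genes under 1 CPM in both lines were skipped and no distance limit was set, so runs spanned 37.2 to 5797 kb. In EO771 they included Hoxa2 to Hoxa7, the imprinted neighbours Zim1, Peg3 and Usp29, the imprinted neighbours Snrpn, Ndn, Mkrn3 and Peg12, and the Armcx genes of the X chromosome. In MLg the 2 runs were Hoxd4, Hoxd8, Hoxd9 and Hoxd10, and the Rhox genes of the X chromosome, whose near-identical copies can share reads. Runs in EO771 also held gene families, such as Gbp, Serpina3 and H2-Q, whose members may share reads too. Outside these runs, Casd1 had 36.8 CPM in EO771 and no count in MLg, whereas its neighbours Sgce and Col1a2 on chromosome 6 had 0 and 1.07 CPM in EO771, against 88.7 and 10953 CPM in MLg.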
